A study of Mus musculus with 4 samples.

Results

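PAX5, EBF1, SPIB, POU2AF1, CD79A, CD79B and CD22 are genes of the B lymphocyte lineage, measured here by RNA sequencing in Jurkat, a line of human leukaemic T cells. The first 4 encode regulators of transcription and the other 3 encode parts of the B cell receptor or its coreceptor. The 7 genes were chosen by name with the read counts of these same libraries already known, so their differences between groups are given as descriptions, with no p-value. Calls from the fit over the whole table are given for them once, and support nothing. Each name matched 1 row of the deposited count table, which makes 7 of 58735 gene rows. The design compares 2 libraries of wild-type Jurkat cells with 2 libraries labelled as carrying a MATR3 knockout, made by CRISPR-Cas9 in the same line, and MATR3 encodes the nuclear RNA-binding protein matrin 3. Both groups were grown under the same stated conditions in serum-supplemented medium. The labels do not say whether the edited cells were 1 clone or a pool, or whether the libraries of a group came from separate cultures. The p-values given below for other genes therefore measure the spread between these libraries, which may be technical.

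In developing B cells, EBF1 and PAX5 switch on the B cell programme and hold down genes of other lineages, and SPIB and POU2AF1 act with other factors at later stages. The antigen receptor is a membrane immunoglobulin that cannot signal alone. It is carried by a heterodimer of CD79A and CD79B, whose tails are phosphorylated by SRC family kinases and then bind the kinase SYK. CD22 is a sialic acid-binding receptor that recruits phosphatases and damps this signal. Mature T cells use the CD3 chains and ZAP70 in place of the CD79 chains and SYK, although CD79A has been reported in a share of T cell leukaemias.

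The libraries held 15008554 to 17477643 reads. In the tested MATR3 row, wild-type libraries held 19 and 9 reads against 42 and 61 for those labelled knockout. Reads of the targeted gene were thus higher, not lower, under the knockout label (log2 fold change 2.05, SE 0.384, edgeR adjusted p = 2.85e-06). RNA reads alone do not show whether the protein was lost. All directions below are those of the libraries as labelled. A second MATR3 row, which spans nearly all of the tested one on the same strand, held 5 and 1 wild-type reads against 2 and 2, too few to test. Reads in the shared stretch may have been counted for neither row, so these few reads may be a small part of those from the gene. Of 20 T cell markers, the markers of the labelled cell type, all were detected, 17 were called lower in the libraries labelled knockout and 0 higher. Of 18 myeloid markers, 16 had enough reads to test, 15 were called higher and 1 lower. Called shares were 85% of tested T cell markers and 100% of tested myeloid markers. Over all tested genes 66.0% were called, with 33.7% higher and 32.3% lower. The myeloid sum was 504.7 and 491.7 CPM (counts scaled to TMM-adjusted library size) in wild-type against 6216 and 6094 in the libraries labelled knockout. The marker MPO alone held 8.48 and 9.34 CPM in wild-type, against 4964 and 4858 in the libraries labelled knockout, most of their sum. CD14 and CD68, which mark mature monocytes and macrophages, stayed at 0 to 8 reads in every library. Mitochondrial genes took 4.92% to 5.31% of wild-type reads, against 9.33% to 9.49% in the libraries labelled knockout. These shifts separate the same libraries as every difference below, and their part in the results was not tested. In such bulk samples, fewer cells that carry a transcript and less of it in each cell cannot be told apart.

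PAX5, the factor that commits cells to the B lineage (ENSG00000196092, chromosome 9, 36833275 to 37034185, minus strand, on a genome build that the sources used here do not give), was read only in the libraries labelled knockout. It had 0 reads in both wild-type libraries, and 53 and 32 reads in replicates 1 and 2 labelled knockout, or 3.61 and 2.15 CPM. The groups did not overlap, and the mean of 2.88 ± 1.03 CPM (SD, n = 2) was at least 32.0-fold higher than a floor of 3 reads over the wild-type group. That floor corresponds to 0.0898 CPM and covers counting error in wild-type only. The 95% exact conditional interval of the ratio, which also covers counting error in the other group, had a lower end of 25.5.

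EBF1, the factor that acts with PAX5 early in the lineage (ENSG00000164330, chromosome 5, 158695916 to 159099761, minus strand), was barely read in any library. Wild-type libraries gave it 1 and 2 reads, and those labelled knockout 2 and 1. The groups overlapped, both stood at the floor of 3 reads, and no difference was detectable at this depth.

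SPIB, an ETS factor closely related to PU.1 (ENSG00000269404, chromosome 19, 50418938 to 50431313, plus strand), showed the reverse order to PAX5. It had 24 and 27 reads in wild-type, or 1.38 and 1.69 CPM, against 1 and 3 reads in the libraries labelled knockout, or 0.0681 and 0.202 CPM. Both wild-type libraries stood above both others, with means of 1.53 ± 0.224 and 0.135 ± 0.0946 CPM (SD, n = 2 each). The fitted log2 fold change was -3.42 (SE 0.672), and it lay between -4.34 (without replicate 2 labelled knockout) and -2.88 (without replicate 1) when each library was left out in turn. The group labelled knockout held 4 reads in all. A row annotated as protein-coding, AC020909.1, overlaps SPIB on the same strand over 9472 bases and held 0 to 2 reads. Reads in a stretch shared by such rows may be counted for neither, so the SPIB level is uncertain.

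POU2AF1, the coactivator that binds the octamer factors POU2F1 and POU2F2 (ENSG00000110777, chromosome 11, 111352252 to 111455630, minus strand), was read in all 4 libraries. The wild-type libraries had 243 and 141 reads, or 13.9 and 8.84 CPM, and those labelled knockout had 72 and 74 reads, or 4.90 and 4.98 CPM. Wild-type was higher without overlap, but its 2 libraries stood farther apart (11.4 ± 3.60 CPM, SD, n = 2) than those labelled knockout (4.94 ± 0.0543 CPM, SD, n = 2). The fitted log2 fold change was -1.21 (SE 0.210), and it lay between -1.51 and -0.82 when each library was left out in turn.

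**Figure D1:**
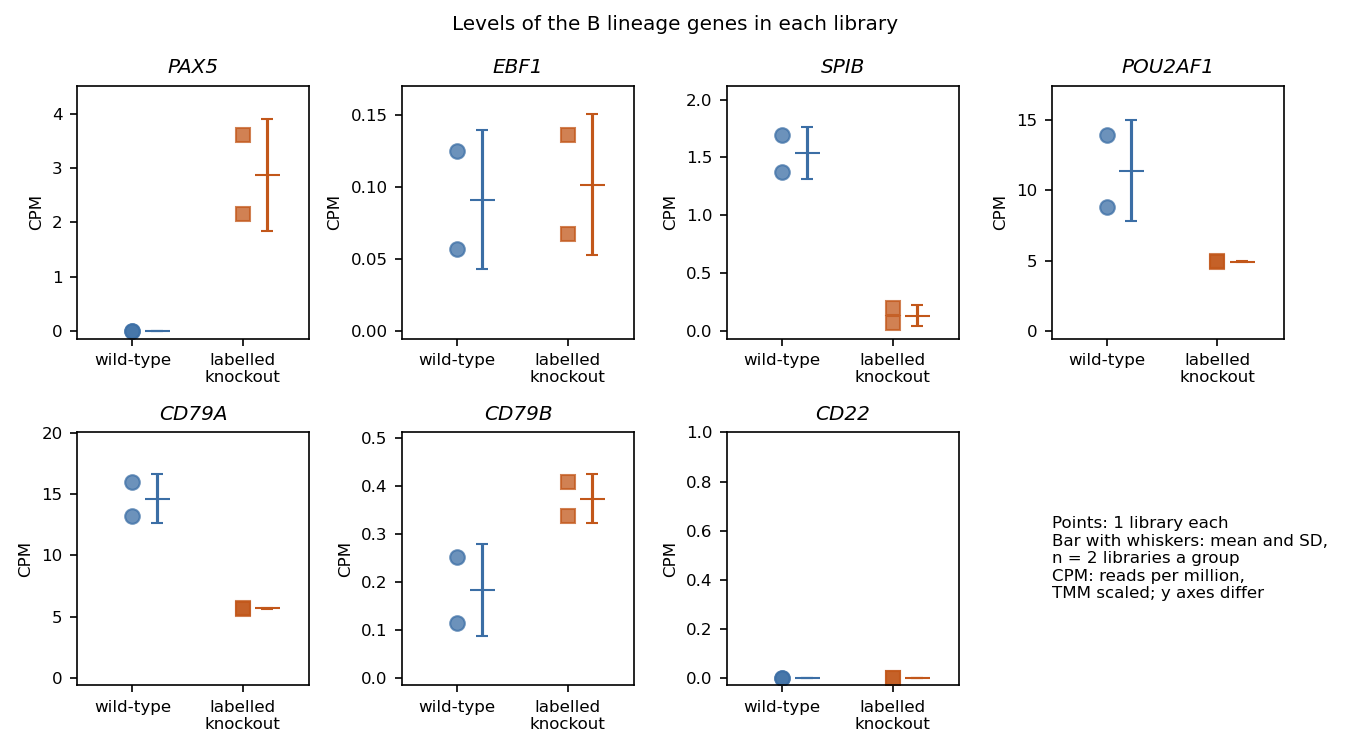
Levels of the 7 genes in CPM (vertical axes, which differ between panels) in 2 wild-type libraries (circles) and 2 libraries labelled knockout (squares), with the mean and SD beside the points. PAX5 was at 0 in both wild-type libraries, SPIB, POU2AF1 and CD79A stood higher in wild-type, and CD22 was at 0 throughout.

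CD79A, the alpha chain of the receptor heterodimer (ENSG00000105369, chromosome 19, 41877120 to 41881372, plus strand), had the most reads of the 7 genes. Wild-type libraries held 280 and 211 reads, or 16.1 and 13.2 CPM, and the libraries labelled knockout held 83 and 85, or 5.65 and 5.72 CPM. Wild-type was higher without overlap. Group means were 14.6 ± 1.99 and 5.69 ± 0.0481 CPM (SD, n = 2 each), a fitted log2 fold change of -1.36 (SE 0.190) that ranged from -1.51 to -1.20 when each library was left out.

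CD79B, the beta chain (ENSG00000007312, chromosome 17, 63928740 to 63932354, minus strand), did not follow its partner. Its 2 and 4 wild-type reads, and 6 and 5 in the libraries labelled knockout, were too few to be tested. Those labelled knockout were slightly higher in CPM, at 0.409 and 0.337 against 0.115 and 0.251, but the ratio of 2.07 had a 95% exact conditional interval of 0.702 to 6.82 and no difference was detectable at this depth. A second row, AC127029.3, overlaps CD79B on the same strand over 2646 bases and had no reads in any library. As for SPIB, reads in the shared stretch may have been counted for neither row.

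CD22, the inhibitory coreceptor (ENSG00000012124, chromosome 19, 35319261 to 35347355, plus strand), had 0 reads in all 4 libraries. A count of 0 allows up to 0.0898 CPM over the wild-type group and 0.102 CPM over the group labelled knockout. The gene was thus not detectable in either group at this depth, and no ratio can be given.

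Levels of different genes were compared per kilobase of the gene length given in the table (RPKM). In wild-type the order was CD79A at 9.74, POU2AF1 at 1.54, SPIB at 0.358, CD79B at 0.0879 and EBF1 at 0.0148 RPKM, with PAX5 and CD22 at 0. The 2 libraries of the higher gene stood above those of the next gene at each of these steps, though the last 2 nonzero levels rest on 6 and 3 reads. In the libraries labelled knockout the order was CD79A at 3.78, POU2AF1 at 0.666, PAX5 at 0.309, CD79B at 0.179, SPIB at 0.0315 and EBF1 at 0.0165 RPKM. There SPIB and EBF1 overlapped, and the other neighbours in the order did not. CD79A therefore led in both groups, and PAX5 took the place above CD79B that SPIB held in wild-type. The SPIB and CD79B levels may be too low, since reads shared with overlapping rows may not have been counted. The CD79A level exceeded that of 67.0% of 12768 tested protein-coding genes in wild-type against 45.2% in the libraries labelled knockout. For POU2AF1 these shares were 30.2% and 14.8%, and for SPIB 11.8% and 0.298%.

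The chains of the CD79 heterodimer were read at very unequal levels. Per length, CD79A stood 113-fold above CD79B in wild-type (95% exact interval 51.7 to 310.1, from 491 and 6 reads) and 21.1-fold above it in the libraries labelled knockout (11.5 to 43.2, from 168 and 11 reads). These intervals cover counting error only and do not overlap, and the difference between them was not tested. CD79B reads shared with the overlapping row AC127029.3 may not have been counted, so both ratios may be too high. All 7 genes together took 550 and 385 reads in wild-type, against 217 and 200 under the knockout label. CD79A and POU2AF1 made up 95.1% and 91.4% of these reads in wild-type, against 71.4% and 79.5% in the others.

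**Figure D2:**
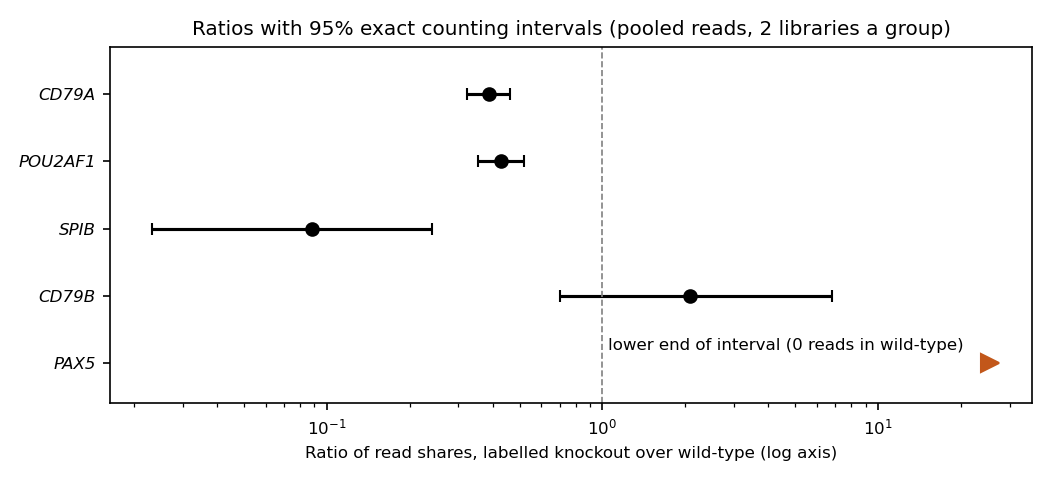
Ratio of read shares in the libraries labelled knockout over wild-type (horizontal log axis) for 5 of the 7 genes, with 95% exact conditional intervals from the reads of 2 libraries a group. CD79A, POU2AF1 and SPIB lie below 1, the CD79B interval spans 1, and the PAX5 arrow marks the lower end of its interval, 25.5, which has no upper end; EBF1 stood at the floor in both groups and CD22 had no reads.

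Of the 7 genes, 4 passed the filter on low counts, 2 had too few reads and 1 had none. PAX5 passed only through its reads in the libraries labelled knockout and SPIB only through those in wild-type. By edgeR's quasi-likelihood test with a Benjamini-Hochberg adjusted threshold of 0.05, 1 of the 4 (PAX5) was called higher and 3 (SPIB, POU2AF1 and CD79A) lower. Over all 15294 tested genes the test called 66.0%, with 33.7% higher and 32.3% lower. Since the genes were chosen with this contrast known, nothing is read from their count.

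Paralogues of the 7 genes included several that were called higher in the libraries labelled knockout. SPI1, which encodes PU.1, the nearest relative of SPIB, rose from 1.41 ± 0.842 to 189.3 ± 6.18 CPM (SD, n = 2 each). Its log2 fold change was 7.04 (SE 0.139, edgeR adjusted p = 8.61e-57), and 7.86 without wild-type replicate 1. Per length, with the reads of each group pooled, SPI1 stood 1.95-fold above SPIB in wild-type (95% exact interval 1.29 to 2.95). In the libraries labelled knockout it stood 2893-fold above SPIB (1129 to 10620). These intervals cover counting error only. The wild-type libraries differed, with SPI1 at 0.970 and 0.394 RPKM against SPIB at 0.321 and 0.396. In wild-type replicate 2 SPI1 was thus not above SPIB. The ratio under the knockout label rests on 4 SPIB reads. SPIB reads shared with the overlapping row AC020909.1 may not have been counted, so both ratios may be too high. EBF3, a paralogue of EBF1, rose from 1.05 ± 0.0242 to 9.17 ± 0.162 CPM (SD, n = 2 each; log2 fold change 3.12, SE 0.277, edgeR adjusted p = 8.68e-17). CD33, a myeloid receptor of the same sialic acid-binding family as CD22, had 5 and 2 wild-type reads, against 669 and 661 in the libraries labelled knockout.

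The octamer factors that POU2AF1 binds went in opposite directions. POU2F1, which is broadly expressed, was higher (log2 fold change 0.88, SE 0.127, edgeR adjusted p = 4.49e-09). POU2F2, the form best known in B cells, was lower (log2 fold change -0.83, SE 0.230, edgeR adjusted p = 0.00118). Of 30 such relatives of the 7 genes, 11 could be tested, of which 6 were called higher and 1 lower, a called share of 63.6% beside 66.0% over all tested genes. The count called lower was 3 without wild-type replicate 2. The median log2 fold change of those tested was 0.88, beside 0.02 over all tested genes. Among the PAX genes, PAX6 and PAX9 were read but not called, and PAX1, PAX3, PAX4 and PAX7 had 0 reads in all libraries.

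Other transcription factors known to act with, before or after the 4 regulators were split between higher and lower. Of 28 listed, 25 were tested, of which 9 were called higher, 10 lower and 6 not called, with a median log2 fold change of -0.24. That made a called share of 76%, beside 66.0% over all tested genes. IRF8, a factor of B cells and monocytes, fell from 7.37 ± 1.02 to 0.744 ± 0.281 CPM (SD, n = 2 each; log2 fold change -3.29, SE 0.319, edgeR adjusted p = 4.49e-15). TCF4, an E protein, rose by 2.11 (SE 0.298), GFI1, a zinc finger repressor, by 2.11 (SE 0.0808) and ID2, an inhibitor of E proteins, by 1.17 (SE 0.197) on the log2 scale. TCF3, the E protein that acts before EBF1, fell from 473.4 ± 6.29 to 320.2 ± 1.62 CPM (SD, n = 2 each). IRF4 and MEF2C had too few reads to test.

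Genes reported in mouse as activated or repressed by Pax5 were called in both directions. Of 8 activated genes other than CD79A and EBF1, 7 were tested, of which 2 were called higher and 3 lower. Their called share was 71.4%, beside 66.0% over all tested genes. CR2, a complement receptor, was higher (log2 fold change 1.21, SE 0.235). CD72, an inhibitory receptor, was lower (log2 fold change -0.80, SE 0.206), as were LEF1 (-0.65, SE 0.0698) and IRF8. BLNK, the adaptor that links SYK to its effectors, had 0 and 2 wild-type reads, against 11 and 11 in the libraries labelled knockout, and with either of the latter left out it was too low to test, which left 1 gene called higher. The adjusted p of BLNK was 5.70e-04 in edgeR and 0.0504 in DESeq2. Of 8 repressed genes, 7 were tested, of which 4 were called higher and 2 lower, a called share of 85.7% beside the same 66.0%. CSF1R, the macrophage growth factor receptor, had 2 and 3 wild-type reads, against 160 and 131 in the libraries labelled knockout. Its log2 fold change of 5.97 (SE 0.394) thus rests on few wild-type reads. SDC1, a plasma cell marker, rose by 3.02 (SE 0.229) on the log2 scale. XBP1, a secretory cell factor, was higher by 1.08 (SE 0.0722), whereas GRAP2, a T cell adaptor, fell by 1.83 (SE 0.0785).

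Downstream of the CD79 chains, several signalling genes shared with myeloid cells were much higher in the libraries labelled knockout. LYN, a SRC family kinase that phosphorylates CD79A and CD22, had 0 wild-type reads but 209 and 162 in the others, at least 139.8-fold higher against the floor of 3 reads over the group. BTK, the kinase activated downstream of SYK, rose from 0.642 ± 0.422 to 50.7 ± 6.12 CPM (SD, n = 2 each; log2 fold change 6.31, SE 0.22, edgeR adjusted p = 3.67e-40), and its log2 fold change was 7.16 without wild-type replicate 2. The adaptors LAT2 and DOK3 rose by 4.22 (SE 0.158) and 3.55 (SE 0.0962) on the log2 scale. BLK, a SRC family kinase named for B lymphocytes, went the other way, from 23.8 ± 2.13 to 4.10 ± 0.205 CPM (SD, n = 2 each; log2 fold change -2.54, SE 0.183, edgeR adjusted p = 4.02e-21).

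Of 26 signalling genes, 25 were tested, of which 13 were called higher, 9 lower and 3 not called, with a median log2 fold change of 0.33. Their called share was 88%, beside 66.0% over all tested genes. SYK, the kinase that binds the phosphorylated CD79 tails, was present in all libraries at 116.8 ± 8.04 and 136.4 ± 0.472 CPM (SD, n = 2 each). Its T cell counterpart ZAP70 fell from 380.8 ± 18.6 to 149.3 ± 4.45 CPM. Per length, ZAP70 stood 3.32-fold above SYK in wild-type (95% exact interval 3.2 to 3.44) and 1.12-fold above it in the libraries labelled knockout (1.07 to 1.17), a difference that was not tested further. The myeloid markers rose in the same libraries as LYN, BTK, LAT2 and DOK3, and their part in these values was not tested.

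Negative regulators of the receptor were called in both directions. Of 18 listed, 15 were tested, of which 9 were called higher, 4 lower and 2 not called, with a median log2 fold change of 0.73. That made a called share of 86.7%, beside 66.0% over all tested genes. INPP5D, the lipid phosphatase SHIP1, rose from 27.5 ± 1.14 to 190.7 ± 0.508 CPM (SD, n = 2 each; log2 fold change 2.80, SE 0.0844, edgeR adjusted p = 2.73e-44). PTPN22, a tyrosine phosphatase, was higher by 1.55 (SE 0.180), CBL, a ubiquitin ligase, by 1.5 (SE 0.0731) and LAIR1, a collagen-binding inhibitory receptor, by 1.08 (SE 0.0737) on the log2 scale. PTPN6, the phosphatase SHP-1 that CD22 recruits, rose from 193.9 ± 10.8 to 341.1 ± 0.369 CPM, and ST6GAL1, the sialyltransferase that makes CD22 ligands, from 60.0 ± 1.44 to 71.9 ± 2.18 CPM (SD, n = 2 each). Both were thus read in libraries in which CD22 itself had 0 reads.

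**Figure D3:**
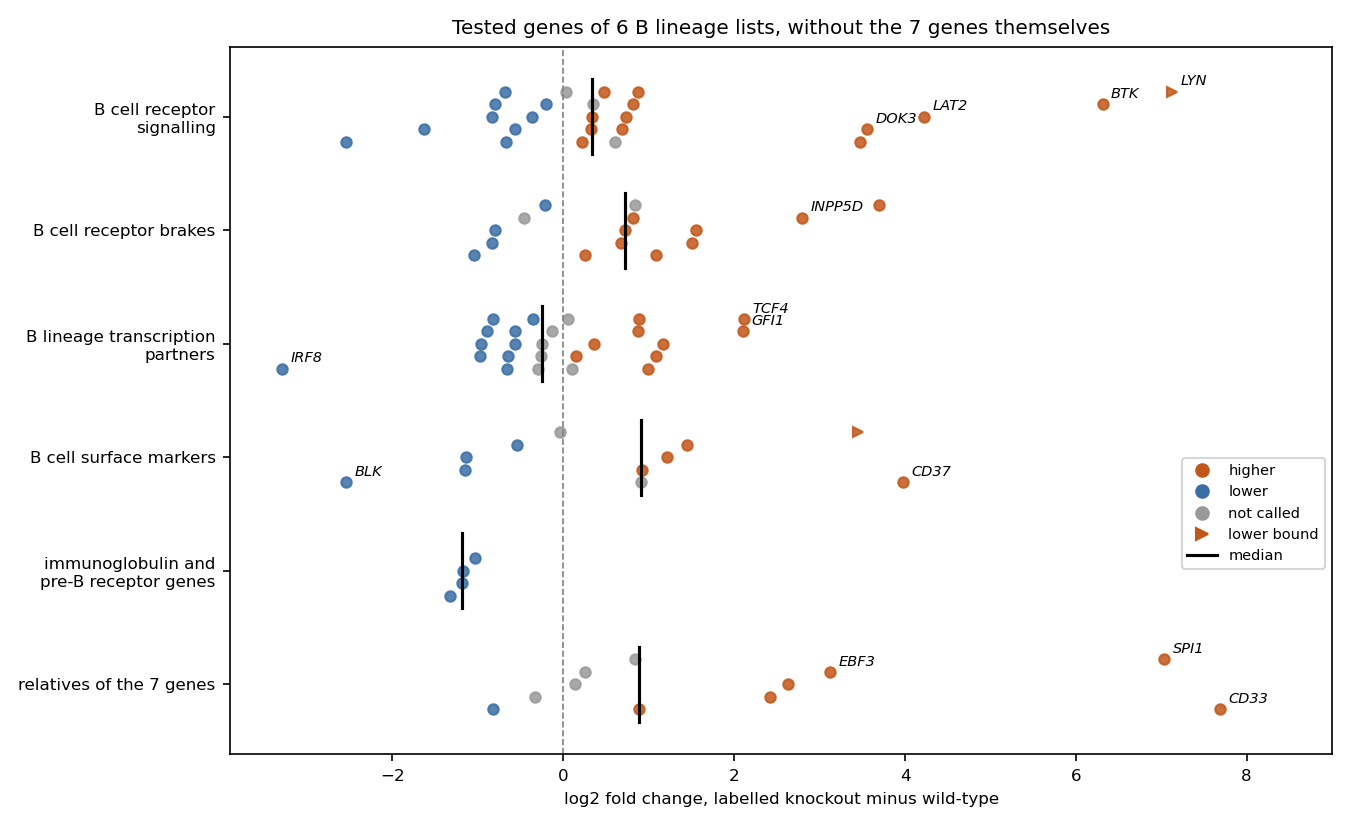
Log2 fold change, libraries labelled knockout minus wild-type (horizontal axis), of each tested gene in 6 lists around the 7 genes, coloured by its call at an adjusted p of 0.05. Black bars are list medians and triangles are lower bounds for genes with 0 wild-type reads, and most lists hold genes on both sides of 0, with LYN, BTK, SPI1 and CD33 farthest to the right.

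MS4A1, the gene of the mature B cell marker CD20, had 0 reads in every library. Of 24 surface and other B cell markers 6 had no reads, 7 were too low to test and 11 were tested. Of those 11, 5 were called higher and 4 lower, a called share of 81.8% beside 66.0% over all tested genes. CD37, a tetraspanin of leukocytes, rose from 4.66 ± 0.467 to 73.5 ± 3.92 CPM (SD, n = 2 each; log2 fold change 3.98, SE 0.134, edgeR adjusted p = 4.66e-41). TNFRSF13C, the BAFF receptor, was higher by 1.45 (SE 0.262) on the log2 scale, and by 2.05 without wild-type replicate 1. CD40, the receptor for T cell help, had 0 wild-type reads but 14 and 15 in the others, at least 10.9-fold higher against the same floor. BLK, given above with the signalling genes, is also in this list and was among the 4 called lower (log2 fold change -2.54, SE 0.183).

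The immunoglobulin genes that the CD79 chains would serve were almost unread. Of 21 immunoglobulin, surrogate light chain and recombination genes, 13 had no reads in any library, among them IGHM and IGHD, and IGKC had 2 reads in replicate 1 labelled knockout. The 4 that were tested are genes of lymphocyte precursors, and all 4 were called lower in the libraries labelled knockout. Over all tested genes 66.0% were called and 32.3% were called lower. IGLL1, the surrogate light chain component, fell from 56.9 ± 6.76 to 27.7 ± 1.29 CPM (SD, n = 2 each; log2 fold change -1.04, SE 0.106, edgeR adjusted p = 3.25e-14). IGLL1 has close relatives among the lambda light chain genes, so its reads may be shared. DNTT, the terminal transferase, fell by 1.17 (SE 0.206) and RAG1 by 1.19 (SE 0.264) on the log2 scale. The RAG1 row overlaps that of RAG2 on the opposite strand, and the strand setting is not known. Reads in the shared stretch may have been counted for the wrong row or for neither, so these 2 calls may not be separate. RAG2 was at -1.33 (SE 0.429, edgeR adjusted p = 0.00503), and its call was lost without wild-type replicate 2 (adjusted p = 0.0538) and in DESeq2 (adjusted p = 0.0869).

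Counted once each, 115 listed genes of the B lineage outside the 7 were in the table, of which 23 had no reads and 13 too few. Of the 79 tested, 36 were called higher, 30 lower and 13 not called. The called share was 83.5%, beside 66.0% over all tested genes, and the median log2 fold change was 0.15 beside 0.02. These shares describe lists that were written with earlier results of these data known.

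Markers of plasma cells, plasmacytoid dendritic cells and natural killer cells were read in part. Of those tested, 85.7%, 100% and 100% were called, in that order, beside 66.0% over all tested genes. Of 10 plasma cell markers, 7 were tested, with 3 called higher and 3 lower; MZB1 fell from 111.6 ± 4.69 to 42.2 ± 0.0290 CPM and DERL3 rose from 0.386 ± 0.103 to 3.56 ± 0.269 CPM (SD, n = 2 each). TNFRSF17 and JCHAIN, which define plasma cells, had 0 reads. Of 11 plasmacytoid dendritic cell markers other than SPIB, 6 were tested, with 3 called higher and 3 lower. GZMB and PTCRA, which T cells also express, fell by 2.80 (SE 0.263) and 2.42 (SE 0.392) on the log2 scale, and CLEC4C, a defining marker, had 0 reads. Of 10 natural killer cell markers, 4 were tested, with 3 called higher and 1 lower. The count called higher was 2 with library size alone, in the DESeq2 Wald test and with no filter on low counts. NKG7 (log2 fold change 0.30, edgeR adjusted p = 0.0372) lost its call there. The count called lower was 0 in the DESeq2 Wald test and with a filter of at least 1 CPM in at least 2 libraries. Calls were also lost when some single libraries were left out. TYROBP, a signalling adaptor that myeloid cells also use, changed most of the 4 tested (log2 fold change 5.49, SE 0.232, and 6.54 without wild-type replicate 1). NCAM1, a natural killer cell marker, went the other way (log2 fold change -2.36, edgeR adjusted p = 0.00129). The NCAM1 call was lost in DESeq2 (adjusted p = 0.0623).

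**Figure D4:**
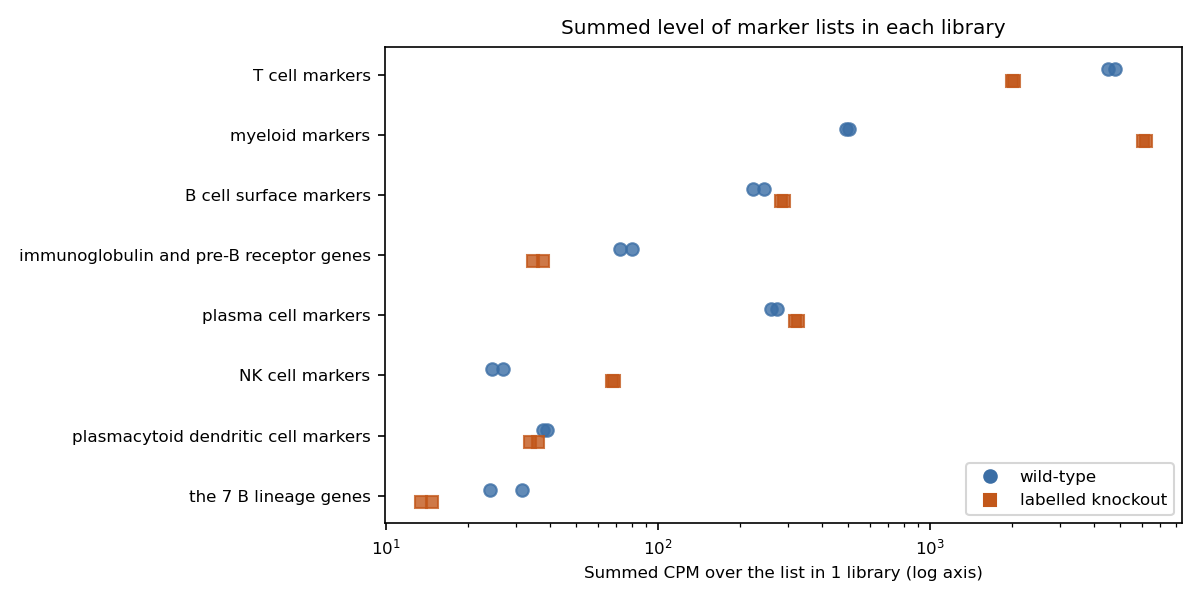
Summed CPM of 8 gene sets (horizontal log axis) in each wild-type library (circles) and each library labelled knockout (squares). The T cell sum was lower and the myeloid sum higher in the libraries labelled knockout, where MPO made up most of the myeloid sum. The 7 B lineage genes summed to 31.5 and 24.1 CPM in wild-type, against 14.8 and 13.5 CPM in the others.

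The neighbours of the 7 genes on their chromosomes did not share 1 pattern. For each gene the nearest 2 tested genes on each side were taken, which lay from 12.8 to 1323 kb away by gene midpoints. Of these 28 neighbours 10 were called higher, 4 lower and 14 not called, a called share of 50% beside 66.0% over all tested genes. None of the 4 neighbours of CD79A was called with all libraries in the fit. RPS19, 12.8 kb away by gene midpoints, had a log2 fold change of 0.01 (SE 0.0742) and ARHGEF1, 27.4 kb away, of 0.05 (SE 0.0711), and the sign of both turned when wild-type replicate 2 was left out. Without wild-type replicate 1, ARHGEF1 was called higher (log2 fold change 0.16, edgeR adjusted p = 0.00501). Beside PAX5, ZCCHC7 (1.21) and EBLN3P (0.50) were called higher and MELK (-0.28) lower on the log2 scale, but the MELK call was lost when either library labelled knockout or wild-type replicate 2 was left out, in DESeq2 (adjusted p = 0.104) and with no filter on low counts (edgeR adjusted p = 0.0921). Beside SPIB, EMC10 was lower (-1.13) and POLD1, 24.0 kb away, was not called (0.11), though it was called without wild-type replicate 1. Of the neighbours of POU2AF1, RDX, 1323 kb away, was higher (1.10) and FDX1, 957 kb away, was lower (-0.25). The closer LAYN, at 147 kb, and SIK2, at 263 kb, were not called. The FDX1 call was lost without either library labelled knockout, in DESeq2 (adjusted p = 0.130) and with no filter on low counts (edgeR adjusted p = 0.0787). Of 13 annotated rows that overlap 1 of the 7 genes, 11 had no reads and none had more than 2.

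Genes with the most similar reads over the 4 libraries were taken as those at the smallest Euclidean distance in log2(CPM + 1), among all protein-coding genes. For PAX5 these were NMS, with 0 and 0 wild-type reads against 45 and 29 in the others, and TUSC1, with 0 and 0 against 46 and 38. SPIB was closest to CMA1 and TMEM74, POU2AF1 to RHPN2 and MED11, and CD79A to SERPINF1 and DDX25. The distances of these 8 genes ranged from 0.168 for SERPINF1 to 0.249 for TMEM74. With 4 libraries in 2 groups such likeness reflects level and group difference only.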

How the data were processed

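The authors deposited 1 table of raw read counts per gene for 4 libraries, with gene symbols, coordinates and gene lengths, without normalization. Per the submitters' processing notes, the tools were CASAVA 1.8, HISAT2 2.0.5 and featureCounts 1.5.0-p3. What each did, the genome build, the strand setting and how reads shared by genes were treated is not given in the sources used here. All rows carry human Ensembl identifiers and the line is human, although mouse is the labelled organism. Without a known strand setting, overlapping genes cannot be told apart.

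Each library was matched to its column by its description. The counts were tested with edgeR 4.0.16 in R 4.3.3 (TMM factors 0.978 to 1.04, default filter of 10 counts and 15 in total, two-sided quasi-likelihood test, no covariate, Benjamini-Hochberg over all tested genes). CPM and RPKM were computed from the deposited counts and gene lengths. Intervals are exact conditional 95% intervals on pooled reads and, like floors of 3 reads, cover counting error only. Each library counted as 1 sample. Replicates of each group differed by more than sampling noise (5.83 and 2.21 units of chi-square per gene), which does not show that they came from separate cultures. The fit was first run on simulated counts in which few genes changed, unlike in these data, so that run does not gauge error rates here.

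The members and all gene lists were chosen with earlier results of these data known. Named genes are the 7 members, MATR3, up to 4 called genes of each list with the largest fold change and at least 1 CPM on average, the nearest 2 tested neighbours on each side, overlapping rows, and the 2 most similar genes of each member. Some genes that this rule takes are given by counts only or are not reported here. Other list members, such as SYK, ZAP70, PTPN6, ST6GAL1, TCF3, POU2F2, BLNK, CD40 and genes without reads, were chosen after their values were seen. Alternatives were DESeq2 1.42.0 (size factors, Wald test), library size alone, 2 other filters, a replicate block and leaving out each library.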

Additional observations from a re-analysis of the deposited data

How the results depend on the processing

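Over 10 alternatives, the genes called over the whole table ranged from 4127 to 5293 higher and from 3891 to 5106 lower, and the B lineage genes outside the 7 from 29 to 38 and from 25 to 31. The replicate numbers do not establish pairs. Across the tested genes, the deviations of replicate 1 from its group mean had a correlation of 0.0278 between the groups. With the replicate block 5149 genes were called higher and 4923 lower, beside 5147 and 4941, and 36 and 30 of the B lineage genes. The signs that turned belong to neighbours that were not called with all libraries in the fit, of which ARHGEF1 was called higher without wild-type replicate 1. With library size alone RPS19 stood at -0.0404 and in the DESeq2 Wald test at -0.00147, on the log2 scale. When each library was left out in turn, RPS19 lay between -0.0482 and 0.0670, ARHGEF1 between -0.0457 and 0.16, NAPSA between -0.41 and 0.13, SIK2 between -0.0166 and 0.000927, SMARCD2 between -0.10 and 0.0216, LSR between -0.0539 and 0.76, FAM71E1 between -0.32 and 0.86, AC010616.1 between -0.32 and 0.89, and DMKN between -0.86 and 0.0429. The cause was not tested. With 1 library left in a group, that library is assumed to vary like the others. Depth limits EBF1, CD79B and CD22, whose groups held at most 11 reads, and a permutation test of 2 against 2 libraries cannot go below an exact two-sided p of 0.333.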
